A study of Homo sapiens with 12 samples.

Results

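The comparison described here is SPT6-AID DLD-1 cells after 6 h in auxin against the same cells at 0 h. It was chosen by the labels of 4 libraries, 2 at each time, out of the 12 libraries of the series. DLD-1 is a human colorectal adenocarcinoma line. The cells carry an auxin-inducible degron tag on SPT6 and constitutively express OsTIR1, the plant F-box protein that recruits a tagged protein to the cell's own ubiquitin ligase once auxin is present. Auxin was added at 500 µM, and the 0 h cells, which carry the same tag and the same OsTIR1, had none. The other 8 libraries are SPT6-AID cells at 2 h and PAF1-AID cells, with the tag on PAF1 in place of SPT6, at 0, 2 and 6 h. They shared 1 model with the 4 libraries and are named below only where they are compared with them. No library came from auxin-treated cells without a tag, so depletion of SPT6 and exposure to auxin cannot be told apart. The labels do not say whether the 2 libraries of a time are separate cultures, nor whether the tagged line is 1 clone, so the p-values reflect differences among libraries that could be technical in origin.

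SPT6 is a histone chaperone and elongation factor that rides with RNA polymerase II and handles nucleosomes as the polymerase passes. It binds the polymerase near its phosphorylated linker, partners with IWS1, and helps place the PAF1 complex, which itself takes part in the release of paused polymerase and in co-transcriptional histone modification. In yeast, loss of SPT6 function is known for transcription from cryptic start sites inside genes and for antisense transcripts.

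Poly(A)-selected RNA was sequenced and read counts per gene were deposited. Total counts in the 12 libraries ran from 31957953 (SPT6-AID at 6 h, library 2) to 115904780. Reads assigned to fly genes made up 4.30% and 4.31% of counts at 0 h and 5.36% and 6.25% at 6 h. Levels are given as CPM, human counts scaled to a common total by TMM, which assumes that most genes do not change. Changes are log2 ratios of 6 h to 0 h with their standard error. A gene is said to have risen or fallen where edgeR's quasi-likelihood test gave a Benjamini-Hochberg adjusted p under 0.05 over all 20791 human genes tested. SUPT6H, the gene of SPT6 (chromosome 17, 28662091 to 28702684 on GRCh38), stood at 496 and 501 CPM at 0 h and 549 and 557 CPM at 6 h. Its mRNA is not the target of the degron and gives no check of the depletion, and the protein was not measured in the files used here.

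The cells carried epithelial markers at both times. EPCAM, an adhesion protein of epithelia, was at 787 and 852 CPM at 0 h and 883 and 1079 CPM at 6 h, the keratin KRT8 at 1645 and 1655 CPM at 0 h and 1867 and 2238 CPM at 6 h, and the intestinal transcription factor CDX2 at 208 and 169 CPM at 0 h and 164 and 129 CPM at 6 h. Of 28 intestinal epithelial markers in the table, CDX1, FABP1 and PHGR1 were among those at 0 counts in all 4 libraries, and the list summed, in CPM without TMM scaling as for the other marker sums, to 5818 to 6007 CPM at 0 h and 6393 to 6924 CPM at 6 h. KRT8 and KRT18 gave the largest parts of that sum, while MUC2, OLFM4, CEACAM5 and CEACAM6 were under 1 CPM in all 4 libraries. Of the 20 intestinal epithelial markers that could be tested 2 rose and 2 fell, 10% each. Among all genes tested the shares were 8.76% and 16.4%. Those that fell were GATA6 and HNF4A, with log2 changes of -1.34 and -0.70. Markers of other cell types summed to little, and some were higher at 6 h. The 15 blood cell markers summed to 8.57 and 24.8 CPM at 0 h and 13.9 and 41.3 CPM at 6 h, so the times overlapped, with MS4A1, CD79B, CD3D, CD3G and HBA1 at 0 counts in all 4 libraries. The 9 endothelial markers went from 8.66 and 7.55 to 15.4 and 13.2 CPM, with TIE1 and EMCN at 0, and the 19 fibroblast markers from 34.2 and 36.2 to 49.4 and 63.1 CPM, with COL1A2, COL3A1, LUM, PDGFRA, POSTN, TWIST1 and ZEB2 at 0. The 12 neural markers summed to 101 and 94.5 CPM at 0 h and 135 and 120 CPM at 6 h, with NEFM and SNAP25 at 0. A marker near 0 at 0 h, such as PECAM1 at 0.0364 and 0 CPM without TMM, passed the filter only through other libraries. It could hardly fall, so the direction of such markers was largely set in advance. Among all genes tested 8.76% rose. Of the markers that could be tested, 3 of 4 blood, 1 of 4 endothelial, 2 of 8 fibroblast and 1 of 7 neural ones rose and none fell. Without 0h library 1 these were 0 of the blood, 1 of the fibroblast and 0 of the neural markers, and without 0h library 2 they were 1 of the blood and fibroblast markers and 0 of the endothelial and neural ones. Without 6h library 2, 1 blood and 0 endothelial markers rose, and without 6h library 1, 0 neural ones. The part of other cell types in the rises below was not tested.

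After 6 h in auxin 1821 genes were higher and 3409 lower, which is 8.76% and 16.4% of the genes tested. The libraries of the 2 times did not overlap for any of these 5230 genes, nor for 58.7% of all genes tested. The higher and the lower genes differed in their level. The higher genes had a median level of 0.944 CPM over the 4 libraries and the lower genes 28.0 CPM, against 8.47 CPM over all genes tested. Most of the steep changes were rises. Leaving aside genes with at most 3 counts over the 2 libraries of either time, 719 genes rose at least 4-fold and 125 fell at least 4-fold, while 268 and 5 changed at least 8-fold. A further 211 of the higher genes had at most 3 counts over both 0 h libraries, so that their fold changes are not known. In summed CPM the falls were larger: the lower genes together lost 93522 CPM, and the higher genes gained 28983 CPM. CPM is a share of scaled counts and not an amount of RNA, and these sums depend on the scaling.

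**Figure D1:**
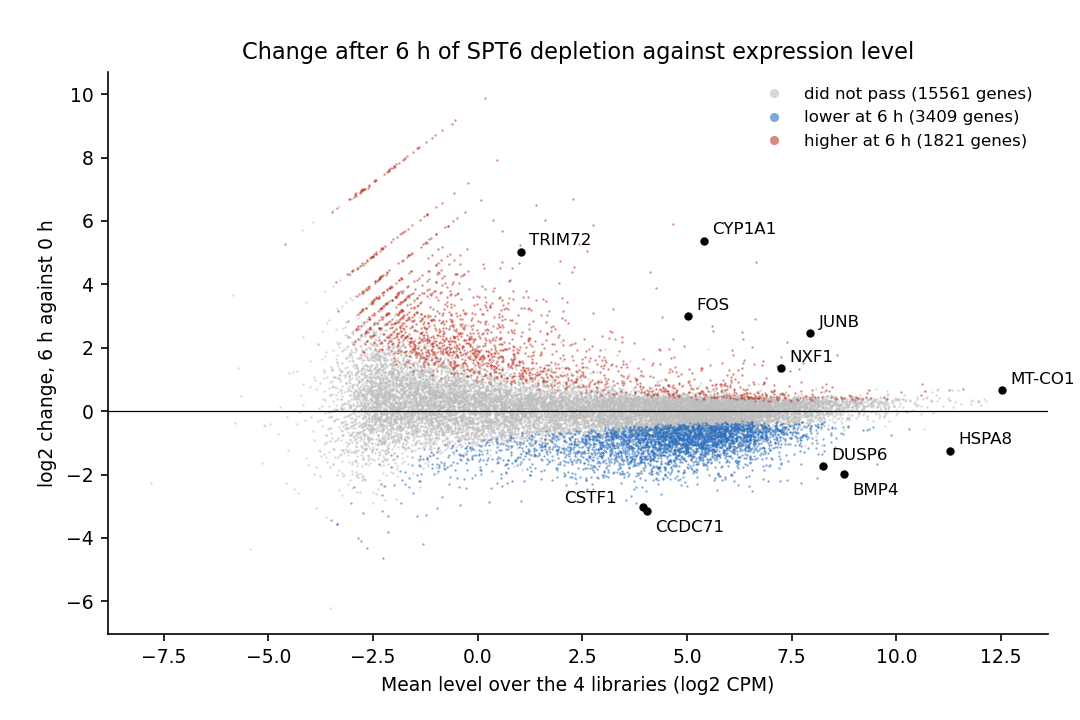
log2 change from 0 h to 6 h in SPT6-AID cells (vertical axis) against the mean level over the 4 libraries in log2 CPM (horizontal axis), 1 point per gene tested. The 1821 higher genes lie mostly at low levels (median 0.944 CPM) and the 3409 lower genes at middle levels (median 28.0 CPM). The slanted streaks at the upper left are genes with no or very few counts at 0 h.

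The counts depend on the scaling and on single libraries. Scaled by the fly counts instead of by TMM, the median change of all genes moved from 0.04 to -0.39, and 958 genes were higher and 5842 lower, 4.61% and 28.1% of genes tested. All of those 958 were also higher by TMM, and all 3409 lower genes stayed lower. Without SPT6-AID 0h library 2 the counts were 799 higher and 2407 lower, without 0h library 1 they were 979 and 2365, and without 6h library 2 they were 1151 and 2039. In each of the 20 alternatives that tested them, setting aside a fit with the library number as a block, 526 higher and 1771 lower genes kept their call. The genes named below did so unless a sentence says otherwise.

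The steepest rises among protein-coding genes with a mean of at least 2 CPM are given first. CYP1A1, a cytochrome P450 that oxidizes planar aromatic compounds (chromosome 15, 74719542 to 74725610), was at 2.14 and 1.85 CPM at 0 h and 78.4 and 88.1 CPM at 6 h. Both 6 h libraries were far above both 0 h libraries, a 41.6-fold difference, or 5.38 ± 0.32 on the log2 scale (edgeR quasi-likelihood test, adjusted p = 4.51e-05). TRIM72, a membrane repair protein best known from muscle (chromosome 16, 31214021 to 31231537), was at 0.125 and 0.112 CPM at 0 h and 3.82 and 4.12 CPM at 6 h, a rise of 5.04 ± 0.48. The claudin genes CLDN24 and CLDN22, which encode tight junction proteins and lie beside each other on chromosome 4, rose together. CLDN24 was at 0.375 and 0.318 CPM at 0 h and 4.26 and 4.29 CPM at 6 h, and CLDN22 at 0.589 and 0.336 CPM at 0 h and 5.39 and 5.55 CPM at 6 h, rises of 3.62 and 3.55. Whether their reads can be told from those of overlapping genes is not given in the sources used here.

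NAT16, an acetyltransferase, rose by 3.56 ± 0.29, PPFIA4, a liprin scaffold protein, by 3.43 ± 0.45, and ZNF512B, a zinc finger protein, by 3.48 ± 0.43. MRC1, the macrophage mannose receptor, went from 0.25 and 0.523 CPM to 3.85 and 3.56 CPM, a rise of 3.26 ± 0.43, and C2orf92 rose by 3.21 ± 0.34. The blood marker sums are given above. CDKN2B, an inhibitor of cyclin-dependent kinases, had the widest spread among these genes: it was at 2.34 and 2.47 CPM at 0 h and 16.6 and 55 CPM at 6 h, so the 6 h libraries differed from each other by more than 3-fold. Its rise of 3.90 ± 0.85 did not pass without 0h library 1, 0h library 2 or 6h library 2.

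Several AP-1 transcription factors rose at 6 h. AP-1 is a dimer of FOS and JUN family proteins that are made within minutes of growth signals or stress and then lost again. In the lists used, 6 of 12 AP-1 and ATF factors rose, 50% against 8.76% of all genes, and none fell, with a median change of 0.80 against 0.04 over all genes tested. FOS (chromosome 14, 75278774 to 75282230) was at 7.66 and 6.95 CPM at 0 h and 67.2 and 49.5 CPM at 6 h, FOSB (chromosome 19, 45467995 to 45475179) at 1.78 and 1.85 CPM at 0 h and 14.8 and 19.1 CPM at 6 h, and JUNB (chromosome 19, 12791496 to 12793315) at 87.5 and 64 CPM at 0 h and 426 and 409 CPM at 6 h. In each of the 3 genes both 6 h libraries stood several-fold above both 0 h libraries, with changes of 2.998 ± 0.22, 3.22 ± 0.43 and 2.46 ± 0.16. JUN, the partner of FOS, was at 43.6 and 36.9 CPM at 0 h and 113 and 133 CPM at 6 h (1.61 ± 0.14), and MAFF, a small MAF protein, at 19.3 and 27.3 CPM at 0 h and 58.7 and 56.5 CPM at 6 h (1.31 ± 0.17). ATF3, JUND, FOSL1 and FOSL2 had log2 changes of 0.68, 0.50, 0.55 and 0.24, and none of these passed (adjusted p = 0.0848, 0.22, 0.182 and 0.3 in edgeR's quasi-likelihood test). With fly scaling 5 of the 6 remained higher.

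The promoters of 4 genes that rose steeply are shown because each holds the letters of a TATA box close before its start. The sequences are the 120 bases before the RefSeq start on GRCh38.p14, written 5′ to 3′ along the gene's strand, and capitals mark TATAAA and, in CYP1A1, GCGTG, the core of the element bound by the aryl hydrocarbon receptor. The search covered both strands.
FOS, chr14:75278708-75278827, plus strand: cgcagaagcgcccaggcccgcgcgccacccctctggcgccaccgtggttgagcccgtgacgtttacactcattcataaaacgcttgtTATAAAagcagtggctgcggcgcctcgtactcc
FOSB, chr19:45467876-45467995, plus strand: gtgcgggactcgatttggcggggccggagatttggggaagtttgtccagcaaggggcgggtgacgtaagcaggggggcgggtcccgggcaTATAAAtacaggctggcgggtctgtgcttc
JUNB, chr19:12791366-12791485, plus strand: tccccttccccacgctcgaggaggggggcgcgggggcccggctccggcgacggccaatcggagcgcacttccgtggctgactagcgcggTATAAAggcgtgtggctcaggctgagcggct
CYP1A1, chr15:74725529-74725648, minus strand: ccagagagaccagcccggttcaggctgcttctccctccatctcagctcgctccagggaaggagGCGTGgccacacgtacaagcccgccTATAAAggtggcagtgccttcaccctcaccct

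The first base of TATAAA lay 33 bases before the start in FOS, 30 in FOSB, 31 in JUNB and 32 in CYP1A1, whose GCGTG lay 57 bases before it. GCGTG is common: it was found in 44.6% of all protein-coding genes with a promoter and 49.0% of the lower ones, and it also stands unmarked in the JUNB window and in that of RPP38 printed later. TATAAA on either strand of the 250 bases before the start was found in 6.12% of the 10989 protein-coding genes tested that had a promoter in the RefSeq table. Among the 2592 lower genes with a promoter it was found in 3.74%. Among genes with a mean of at least 1 in log2 CPM the gap was smaller, with 3.8% of lower genes and 5.11% of all. Of the 974 higher protein-coding genes 75.4% had a promoter in the table, and because the rest are missing no share is given for them. A match is a description of the letters and not of a bound site.

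Genes that respond early alongside AP-1 rose as well. In a list of 30 other immediate early and early response genes 13 rose and 1 fell, with a median change of 0.54. These are 43.3% and 3.33%, against 8.76% and 16.4% of all genes tested. With fly scaling 23.3% of the list rose, against 4.61% of all genes. Without 0h library 2 there were 10 that rose, and with fly scaling 7. GADD45B, a stress-induced signalling protein, was at 26.7 and 21.6 CPM at 0 h and 117 and 155 CPM at 6 h (2.49 ± 0.16). IER5, a nuclear regulator, was at 72.3 and 47.6 CPM at 0 h and 297 and 251 CPM at 6 h (2.19 ± 0.21). EGR3, a zinc finger factor of the EGR family, was at 3.52 and 2.13 CPM at 0 h and 12.7 and 18.9 CPM at 6 h (2.48 ± 0.41), higher in both 6 h libraries but with those 2 well apart. IER2 was at 140.2 and 85.7 CPM at 0 h and 436 and 214 CPM at 6 h (1.53 ± 0.31), NR4A2, an orphan nuclear receptor, at 4.51 and 5.1 CPM at 0 h and 9.06 and 17.5 CPM at 6 h (1.46 ± 0.30), GADD45G rose by 1.36 ± 0.21, and CCN2, a secreted matricellular protein, by 1.53 ± 0.16. The member that fell was ZFP36L1, which targets AU-rich mRNAs for decay, at 471 and 393 CPM at 0 h and 295 and 221 CPM at 6 h (-0.74 ± 0.19), a call that did not pass without 0h library 1 or 6h library 2.

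The feedback inhibitors of ERK signalling went both ways. Of 20 measured, 3 rose and 4 fell, with a median of -0.11, close to the 0.04 of all genes. These are 15% and 20%, against 8.76% and 16.4% of all genes and 7.13% and 22.6% of protein-coding genes. With fly scaling 2 rose and 9 fell, 10% and 45%, against 4.61% and 28.1% of all genes. DUSP6, the phosphatase of ERK, was at 463 and 468 CPM at 0 h and 148 and 132 CPM at 6 h, with both 6 h libraries far below both 0 h libraries (-1.74 ± 0.18). SPRED2 and SPRED1, which restrain the RAS pathway, fell, with log2 changes of -1.52 and -1.15, while SPRY4, of the related Sprouty family, was at 24.6 and 19.99 CPM at 0 h and 67.8 and 47.9 CPM at 6 h and rose by 1.38 ± 0.19.

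Targets of the aryl hydrocarbon receptor rose while the receptor's own mRNA fell. This receptor is a ligand-activated transcription factor that pairs with ARNT and switches on the CYP1 genes. Of 11 pathway genes, 5 rose and 3 fell, with a median of 0.70. These are 45.5% and 27.3%, against 8.76% and 16.4% of all genes tested. Among protein-coding genes 7.13% rose and 22.6% fell. Beside CYP1A1, CYP1B1 was at 34.3 and 21.3 CPM at 0 h and 166 and 104 CPM at 6 h (2.28 ± 0.36), CYP1A2 at 0.268 and 0.262 CPM at 0 h and 1.2 and 1.64 CPM at 6 h (2.40 ± 0.48), and TIPARP, an ADP-ribosyltransferase that restrains the receptor, at 33.6 and 40.2 CPM at 0 h and 106 and 75.9 CPM at 6 h (1.30 ± 0.22). The repressor AHRR rose by 1.90 ± 0.44, a call lost without 0h library 2 or 6h library 1. AHR itself was at 133 and 95.2 CPM at 0 h and 46.6 and 29.9 CPM at 6 h (-1.58 ± 0.24), with no overlap between the times, and ARNT at 38.3 and 31.3 CPM at 0 h and 22 and 17 CPM at 6 h (-0.83 ± 0.17). All 5 rises passed with fly scaling too. In PAF1-AID cells CYP1B1 also rose from 0 h to 6 h, by 1.34, and AHR also fell, with a log2 change of -0.86. Both passed (adjusted p = 0.0374 and 0.044, edgeR quasi-likelihood test), while CYP1A2, AHRR and ARNT did not pass there.

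**Figure D2:**
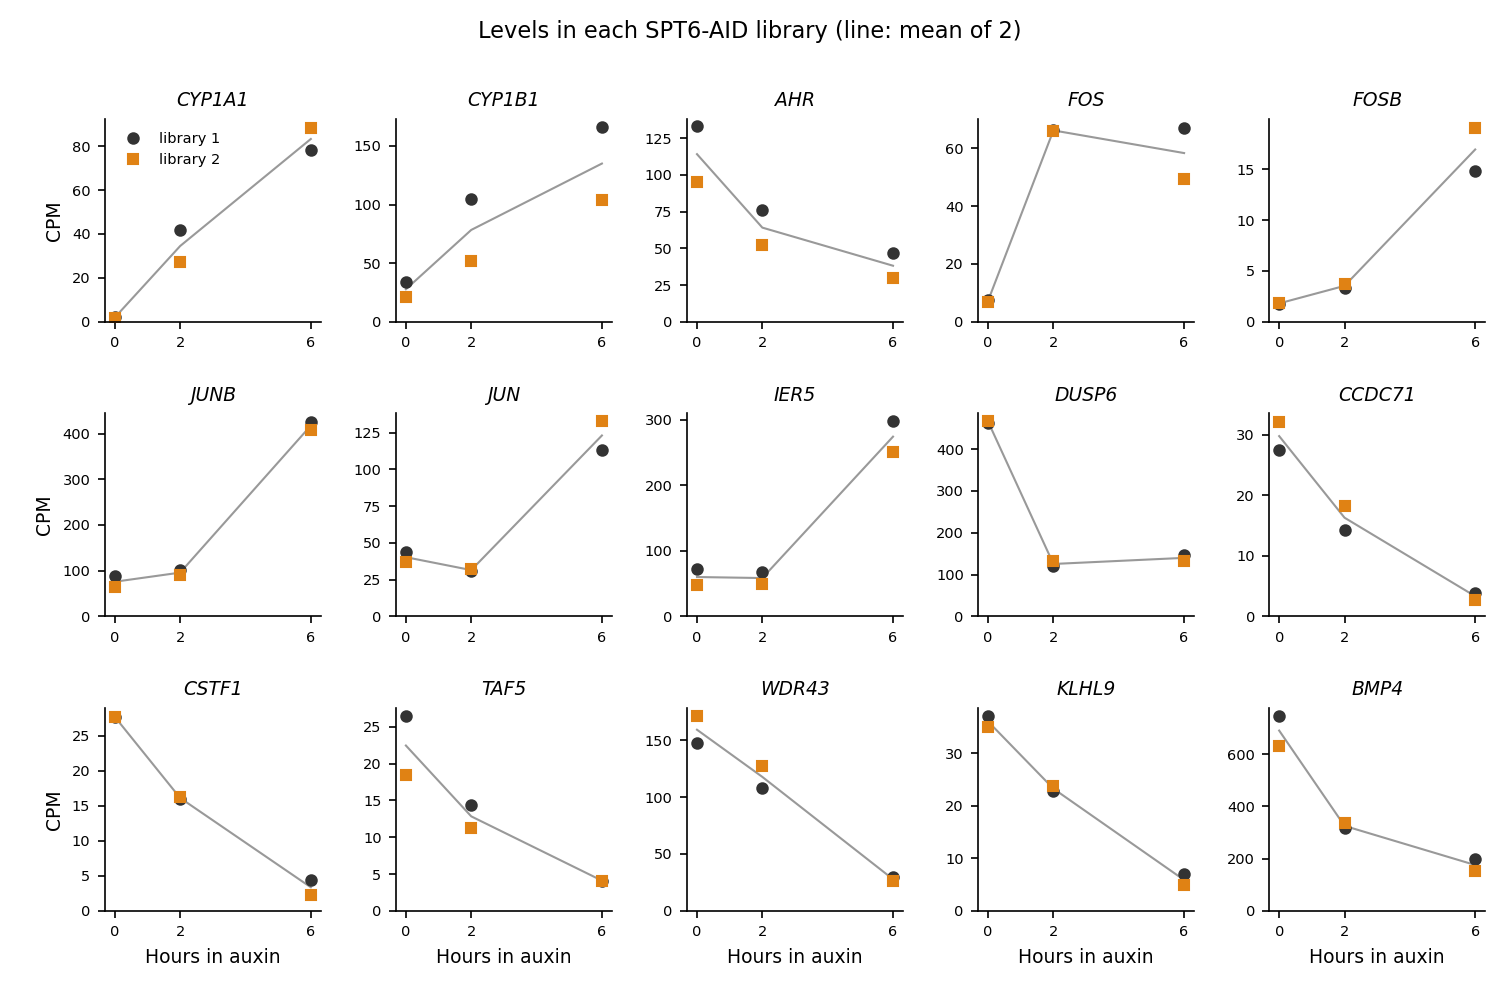
Level in CPM (vertical axis, from 0) of 15 genes in each SPT6-AID library at 0, 2 and 6 h in auxin (horizontal axis); circles are library 1, squares library 2, and the line joins the means of the 2. FOS and DUSP6 lay at 2 h near their 6 h level, while JUNB, JUN and IER5 at 2 h lay near 0 h, and CCDC71, CSTF1, TAF5 and KLHL9 went down at both steps.

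Among abundant transcripts the gains were small in ratio and hung on the scaling. The mitochondrial gene MT-CO1, a subunit of cytochrome oxidase, was at 4536 and 4558 CPM at 0 h and 7008 and 7384 CPM at 6 h (0.66 ± 0.19), MT-ND4 at 4646 and 4921 CPM at 0 h and 7246 and 7929 CPM at 6 h (0.67 ± 0.19), and the mitochondrial ribosomal RNA MT-RNR2 at 1066 and 1178 CPM at 0 h and 1826 and 2206 CPM at 6 h (0.84 ± 0.25). Mitochondrial genes made up 2.39% and 2.45% of human counts at 0 h and 3.85% and 3.92% at 6 h. Of 13 mitochondrial genes 5 rose by TMM, none with fly scaling, none without 0h library 1, 0h library 2 or 6h library 2, and 3 without either PAF1-AID 2h library. The calls for MT-CO1, MT-ND4 and MT-RNR2 were lost with fly scaling and in the same 3 fits without an SPT6-AID library. FTH1, the ferritin heavy chain (0.61 ± 0.16), and TMSB10, a thymosin that binds actin (0.51 ± 0.15), rose by TMM, and neither passed without 0h library 1, 0h library 2 or 6h library 2. TMSB10 was also lost with the SPT6-AID libraries alone, without 2h library 1 and without any 1 of the 4 PAF1-AID libraries at 2 h and 6 h. With fly scaling FTH1 and TMSB10 were at 0.16 and 0.05 (adjusted p = 0.255 and 0.728 in edgeR's quasi-likelihood test).

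The steepest falls among protein-coding genes with a mean of at least 2 CPM were in genes of middle level. CCDC71, a coiled-coil protein of little-known function (chromosome 3, 49162535 to 49166321), was at 27.5 and 32.1 CPM at 0 h and 3.89 and 2.76 CPM at 6 h. This was an 8.89-fold fall, -3.15 ± 0.24 on the log2 scale (edgeR quasi-likelihood test, adjusted p = 8.46e-05). CSTF1, a subunit of the cleavage stimulation factor that acts at poly(A) sites (chromosome 20, 56392371 to 56406369), was at 27.7 and 27.7 CPM at 0 h and 4.45 and 2.27 CPM at 6 h (-3.02 ± 0.27), and RPP38, a protein of the tRNA-processing enzyme RNase P (chromosome 10, 15097180 to 15139818), at 22.7 and 26.1 CPM at 0 h and 3.98 and 2.55 CPM at 6 h (-2.89 ± 0.31). In each of the 3 genes both 6 h libraries lay far below both 0 h libraries. KDM8, a JmjC-domain hydroxylase, was at 4.03 and 3.17 CPM at 0 h and 0.63 and 0.349 CPM at 6 h (-2.84 ± 0.37), MTFR2, a mitochondrial fission regulator, at 18.4 and 22.7 CPM at 0 h and 2.98 and 2.9 CPM at 6 h (-2.80 ± 0.40), and PRMT6, an arginine methyltransferase of histone H3, at 25 and 18.6 CPM at 0 h and 4 and 2.72 CPM at 6 h (-2.69 ± 0.31). KLHL9, an adaptor of the CUL3 ubiquitin ligase, ETAA1, an activator of the ATR kinase, and GOLPH3, a Golgi protein, fell, with log2 changes of -2.61, -2.52 and -2.50. RAD52, of homologous recombination, went from 9.92 and 10.8 CPM to 2.3 and 1.4 CPM (-2.46 ± 0.28).

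The promoters of the 3 steepest falls that had one in the RefSeq table are given in the same way, with capitals marking CCAAT or GGGCGG on either strand. CCDC71 had none in the table.
CSTF1, chr20:56392259-56392378, plus strand: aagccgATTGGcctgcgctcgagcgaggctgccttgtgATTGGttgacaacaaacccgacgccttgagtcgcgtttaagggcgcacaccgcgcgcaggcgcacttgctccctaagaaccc
RPP38, chr10:15097235-15097354, plus strand: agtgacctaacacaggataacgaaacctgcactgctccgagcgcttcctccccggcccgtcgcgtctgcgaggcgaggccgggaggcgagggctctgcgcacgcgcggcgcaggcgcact
KDM8, chr16:27203406-27203525, plus strand: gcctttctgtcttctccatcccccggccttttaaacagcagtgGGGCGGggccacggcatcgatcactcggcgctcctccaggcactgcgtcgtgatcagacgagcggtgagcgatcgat

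CSTF1 held 2 copies of CCAAT, both on the other strand and so read as ATTGG, KDM8 held GGGCGG, and RPP38 held neither. None of the 3 windows held TATAAA or the ETS core searched below. The same letters also stand unmarked in the windows above: GGGCGG in FOSB, and CCAAT and the ETS core in JUNB. In the 250 bases before the start, CGGAAG, the core of the ETS element, was found in 32.4% of lower genes and 27% of all protein-coding genes with a promoter. GGGCGG was found in 69.3% and 66.3%, and CCAAT in 36.4% and 35.1%. Among genes with a mean of at least 1 in log2 CPM the shares were 69.5% and 69.65% for GGGCGG, and 32.42% and 29.38% for CGGAAG.

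By CPM rather than by ratio, the largest losses were in highly expressed genes of varied roles. HSPA8, the constitutive HSP70 chaperone, was at 3249 and 3736 CPM at 0 h and 1216 and 1727 CPM at 6 h (-1.25 ± 0.26). BMP4, a secreted growth factor, was at 748 and 633 CPM at 0 h and 199 and 152 CPM at 6 h (-1.98 ± 0.17), ARHGAP32, a GTPase-activating protein, at 438 and 461 CPM at 0 h and 149 and 109.6 CPM at 6 h (-1.79 ± 0.16), and TNS4, a tensin of focal adhesions, at 525 and 372 CPM at 0 h and 122 and 84.8 CPM at 6 h (-2.12 ± 0.23). EREG, an EGF receptor ligand, was at 904 and 1365 CPM at 0 h and 384 and 332 CPM at 6 h (-1.66 ± 0.42), a call lost without 0h library 2, 6h library 1 or 6h library 2. EIF3A, a translation initiation factor, fell, with a log2 change of -0.75, not passing without 0h library 2. MKI67, the proliferation antigen, was at 1277 and 1754 CPM at 0 h and 957 and 1077 CPM at 6 h (-0.57 ± 0.19), and its call was lost with DESeq2's size factors, with a mean of at least 1 CPM and with the SPT6-AID libraries alone. It was lost too without 0h library 2, 2h library 2, either 6 h library, or any 1 of the 4 PAF1-AID libraries at 2 h and 6 h.

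Messenger RNAs of the transcription machinery fell in many of its complexes. Members are counted below against the 16.4% of all genes that were lower. That share takes in non-coding genes, and of protein-coding genes alone 22.6% were lower. By level it was 26.8%, 34.6% and 22.2% of protein-coding genes in the middle, second-highest and highest quintile of all genes. A list share within that range is not set apart from protein-coding genes of like level. SPT6's own partners and the other elongation chaperones had 4 of 15 members lower and none higher, with a median of -0.04. IWS1, which binds SPT6 directly, was at 79.2 and 97.9 CPM at 0 h and 26.1 and 26.8 CPM at 6 h (-1.74 ± 0.20). SETD2, the H3K36 methyltransferase that travels with the polymerase, was at 103 and 106 CPM at 0 h and 66.7 and 45.3 CPM at 6 h (-0.90 ± 0.16), and ASF1A, a histone H3-H4 chaperone, fell, with a log2 change of -0.95. SUPT5H, a subunit of DSIF, and SUPT16H and SSRP1, which form FACT, were at 0.17, 0.06 and 0.29 and did not pass (adjusted p = 0.376, 0.935 and 0.221 in edgeR's quasi-likelihood test).

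In the PAF1 complex 3 of 6 subunit genes fell. LEO1 was at 60.6 and 62 CPM at 0 h and 28.3 and 21.1 CPM at 6 h (-1.31 ± 0.16) and CDC73 at 41 and 39.3 CPM at 0 h and 23 and 15.7 CPM at 6 h (-1.05 ± 0.18), each with the 6 h libraries below both 0 h libraries. RTF1 fell, with a log2 change of -0.77, not passing without 6h library 2. PAF1 was at 69.6 and 75.8 CPM at 0 h and 52.3 and 61.5 CPM at 6 h, a change of -0.35 ± 0.12 that did not pass (adjusted p = 0.0543, edgeR quasi-likelihood test). CTR9 was the subunit that rose, from 85.8 and 93.5 CPM to 116.5 and 145 CPM (0.54 ± 0.13), and it did not pass with fly scaling or without 0h library 1 or 6h library 2.

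Kinases and regulators of pause release also fell. Of 14 genes of P-TEFb, the 7SK particle and the kinases of the polymerase tail, 8 were lower, with a median of -0.60, and 5 were lower without 6h library 2. MEPCE, which caps 7SK RNA, was at 55.8 and 53 CPM at 0 h and 20.6 and 15.8 CPM at 6 h (-1.58 ± 0.17). CDK12, an elongation kinase, was at 204 and 221 CPM at 0 h and 92.2 and 66.5 CPM at 6 h (-1.42 ± 0.16), and CDK13, its close relative, fell, with a log2 change of -1.17. CDK9, the kinase of P-TEFb, had a log2 change of 0.26 and did not pass. In NELF and the super elongation complex 6 of 15 fell and 1, EAF1, rose, the latter not with fly scaling, without a filter or with the SPT6-AID libraries alone. EAF1 also did not pass without 0h library 1, 0h library 2, 2h library 1 or 6h library 2. Among them NELFA, a subunit of the pausing factor NELF, was at 52.1 and 41.8 CPM at 0 h and 22.4 and 13.1 CPM at 6 h (-1.40 ± 0.22), and MLLT3, MLLT1 and ICE1 fell, with log2 changes of -1.24, -0.90 and -0.88.

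Factors of initiation fell as well. Of 30 general transcription factors and TBP-associated factors 14 fell and none rose, with a median of -0.43. TAF5, a scaffold subunit of TFIID, was at 26.5 and 18.5 CPM at 0 h and 4.08 and 4.12 CPM at 6 h (-2.45 ± 0.23). TBP, which binds the TATA box, was at 20.1 and 23.1 CPM at 0 h and 10.3 and 6.63 CPM at 6 h (-1.35 ± 0.23), GTF2B, which positions the polymerase at the start site, at 28.9 and 34.7 CPM at 0 h and 13.5 and 15.1 CPM at 6 h (-1.16 ± 0.15), and TAF8 fell, with a log2 change of -1.49. In the Mediator 16 of 32 genes fell and none rose, with a median of -0.50. MED13, of the kinase module, was at 136 and 140.1 CPM at 0 h and 56.1 and 34.2 CPM at 6 h (-1.61 ± 0.19), and MED17, MED8 and MED1 fell, with log2 changes of -1.61, -1.45 and -1.16. Without 0h library 2, 11 and 13 genes were lower in these lists.

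Of 19 genes of RNA polymerase II and its assembly 3 fell and 1 rose, a share lower of 15.8%, near that of all genes, and 1 fell without 0h library 1, 0h library 2 or 6h library 2. The gene that rose was POLR2K, which did not pass with fly scaling, with the SPT6-AID libraries alone, or without any 1 of those 3, 2h library 1 or the PAF1-AID libraries at 0 h and 2 h. With fly scaling 8 of the 19 were lower, against 28.1% of all genes. POLR2D, which forms the stalk of the enzyme, was at 56.1 and 66 CPM at 0 h and 28.6 and 26.3 CPM at 6 h (-1.16 ± 0.12), and POLR2A, the largest subunit, at 439 and 529.5 CPM at 0 h and 378 and 459.6 CPM at 6 h, a change of -0.21 that did not pass. RNA polymerases I and III and their factors were lower in 21 of 32 cases and higher in none, with a median of -0.69, and in 14 without 0h library 2. POLR1B, the second-largest subunit of polymerase I, was at 104 and 119 CPM at 0 h and 39.4 and 32.1 CPM at 6 h (-1.63 ± 0.14). BRF1 and BRF2, which recruit polymerase III, fell, with log2 changes of -1.55 and -1.62.

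Histone methyltransferases and demethylases were lower in 29 of 47 cases and higher in none (median -0.71), and in 22 without 6h library 2. SETDB1, an H3K9 methyltransferase of heterochromatin, was at 45.2 and 41.6 CPM at 0 h and 13.5 and 9.84 CPM at 6 h (-1.89 ± 0.16), and SUV39H1, which also methylates H3K9, at 33.4 and 36.7 CPM at 0 h and 12.1 and 10.5 CPM at 6 h (-1.63 ± 0.18). EHMT1, another enzyme of that residue, fell, with a log2 change of -1.40. KDM8 and PRMT6, named above, were the steepest falls of the list.

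The machinery of 3′ end formation had 12 of 26 genes lower and 1 higher. CSTF1 led it. CSTF2T, an autosomal paralog of CSTF2, was at 55.5 and 62.2 CPM at 0 h and 16.9 and 14.3 CPM at 6 h (-1.91 ± 0.16), PAPOLG, a poly(A) polymerase, at 27.5 and 25.1 CPM at 0 h and 6.84 and 4.82 CPM at 6 h (-2.17 ± 0.18), and WDR82, which joins the phosphatase complex that slows the polymerase after poly(A) sites, at 203 and 182 CPM at 0 h and 71.3 and 45.1 CPM at 6 h (-1.73 ± 0.19). PPP1R10, the regulatory subunit of that complex, SCAF8, an anti-termination factor, and FIP1L1, of the cleavage and polyadenylation factor, fell, with log2 changes of -1.75, -1.67 and -1.29. PABPN1, the nuclear poly(A)-binding protein, rose by 0.82 ± 0.27, a call lost with total counts, with fly scaling and with the SPT6-AID libraries alone. It was lost as well without 6h library 1, without 0h library 2 and without any 1 of the PAF1-AID libraries. Of 14 Integrator genes 6 fell, and INTS6 was at 14.7 and 14.5 CPM at 0 h and 5.13 and 4.15 CPM at 6 h (-1.65 ± 0.21).

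**Figure D3:**
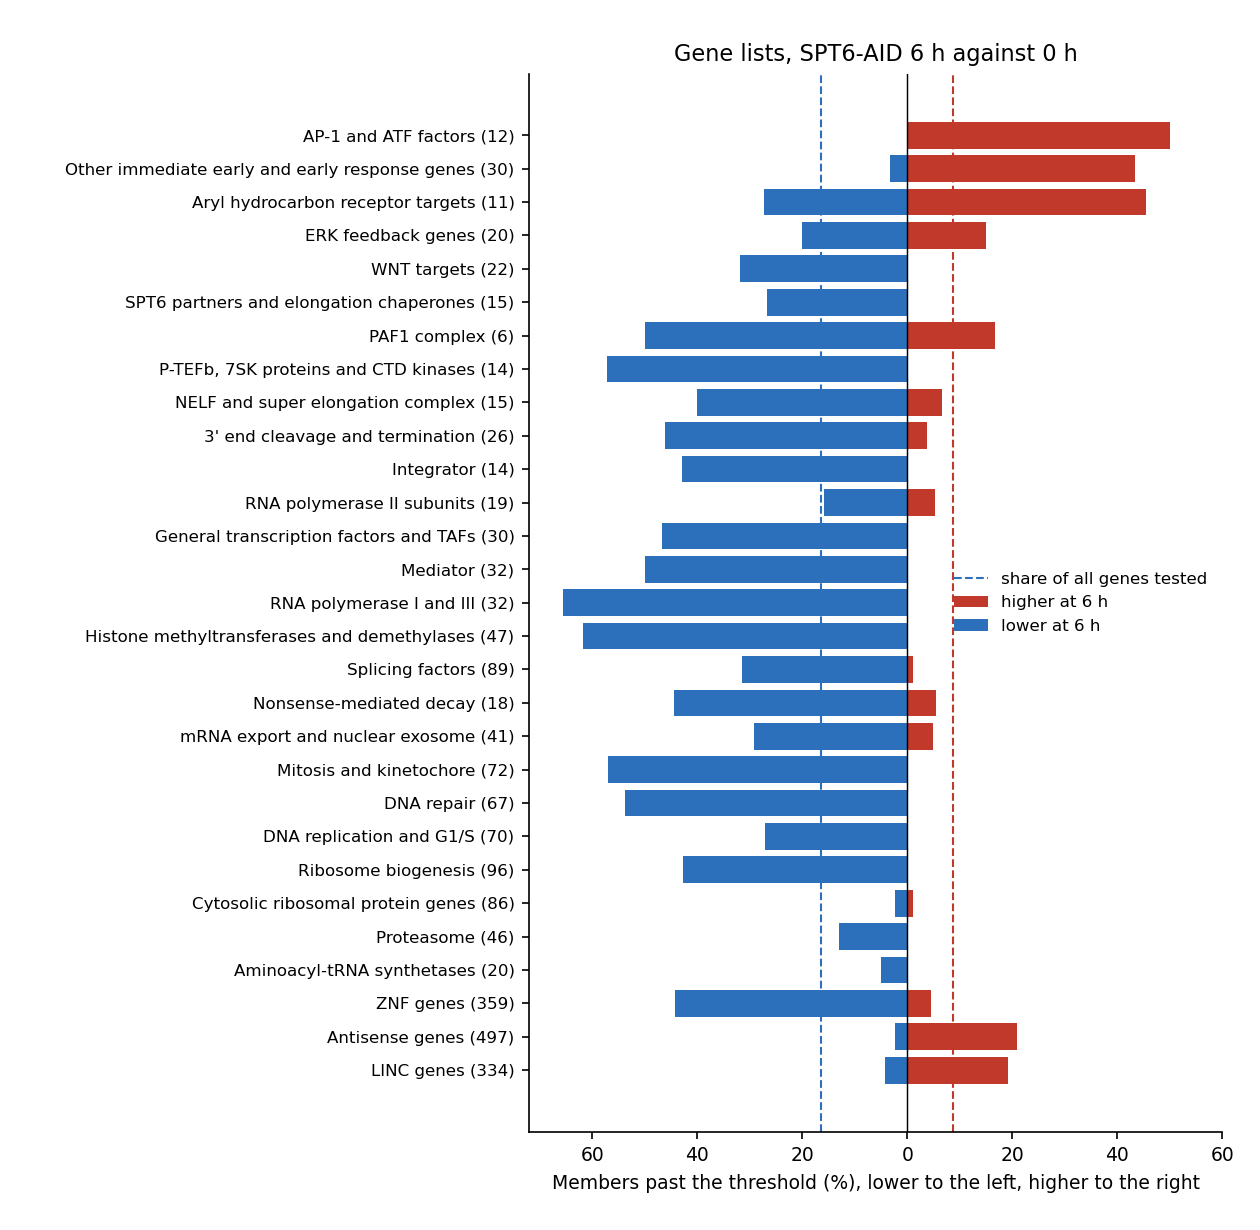
Percent of tested members (number in brackets) that were higher (red, to the right) or lower (blue, to the left) at 6 h against 0 h in SPT6-AID cells, by gene list. Dashed lines mark the shares over all genes tested, 8.76% higher and 16.4% lower. Of protein-coding genes alone 22.6% were lower. The bars of initiation, Mediator, polymerase I and III, mitosis and repair genes run past the blue line. Those of ribosomal protein, proteasome and tRNA synthetase genes stop short of it by TMM. With fly scaling 37% of proteasome and 45% of synthetase genes were lower, against 28.1% of all.

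RNA processing genes fell to differing degrees. Of 89 splicing factors 28 fell and 1 rose, with a median of -0.23. PRPF38B was at 96.3 and 75.7 CPM at 0 h and 25.6 and 18.1 CPM at 6 h (-1.97 ± 0.20), RBM39, a splicing coactivator, at 226 and 256 CPM at 0 h and 95 and 87.8 CPM at 6 h (-1.40 ± 0.11), and SON, a scaffold of nuclear speckles, at 513 and 506 CPM at 0 h and 260.2 and 204 CPM at 6 h (-1.14 ± 0.13). CLK4, a kinase of SR proteins, fell, with a log2 change of -1.73. In nonsense-mediated decay, which removes mRNAs with early stop codons, 8 of 18 genes fell, and SMG9, SMG6 and CASC3 had log2 changes of -1.73, -1.27 and -1.19. EIF4A3 was the member that rose, not passing with fly scaling, without a filter, or without 0h library 1, 0h library 2, 2h library 1, 6h library 2 or either PAF1-AID 2h library. Of 41 genes of mRNA export and the nuclear exosome 12 fell and 2 rose, 1 of them without 0h library 2. NXF1, the main mRNA export receptor, was one of those that rose, from 84.5 and 87.5 CPM to 207 and 231 CPM (1.35 ± 0.12), with the libraries of each time close together. ZCCHC8, of the complex that feeds RNA to the nuclear exosome, was at 41.6 and 43.9 CPM at 0 h and 16.5 and 15.6 CPM at 6 h (-1.41 ± 0.12), and ZCCHC7 and EXOSC3 fell, with log2 changes of -1.41 and -1.15.

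Genes of mitosis and of DNA repair were often lower. Of 72 mitosis and kinetochore genes 41 fell and none rose, with a median of -0.62, and 29 fell without 0h library 2. CENPA, the histone H3 variant of centromeres, was at 31.8 and 30.4 CPM at 0 h and 8.52 and 5.93 CPM at 6 h (-2.10 ± 0.19), and the mitotic kinase AURKA at 105 and 143 CPM at 0 h and 34.3 and 39.4 CPM at 6 h (-1.75 ± 0.22). The kinesins KIF18A and KIF18B and the centriole kinase PLK4 fell, with log2 changes of -1.90, -1.99 and -1.65. Of 67 repair genes 36 fell and none rose, with a median of -0.56, and 24 fell without 0h library 2. FANCM, a translocase of the Fanconi pathway, was at 29.7 and 30.1 CPM at 0 h and 7.06 and 6.32 CPM at 6 h, a change of -2.16 ± 0.14 with the libraries of each time close together. RMI1, of the dissolvasome, RIF1, which steers repair away from resection, and PALB2, the partner of BRCA2, fell, with log2 changes of -2.01, -1.86 and -1.77.

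DNA replication and G1/S genes were lower in 19 of 70 cases, with a median of -0.19, in 9 without 0h library 2 and in 12 without 6h library 2. POLD3, a subunit of DNA polymerase delta, was at 41.7 and 45.7 CPM at 0 h and 11.1 and 9.91 CPM at 6 h (-2.05 ± 0.17), and GINS1, of the replicative helicase, and the kinase CDC7 fell, with log2 changes of -1.63 and -1.37. Among 26 p53 targets 2 rose and 6 fell, 7.69% and 23.1%. Among all genes tested the shares were 8.76% and 16.4%, and among protein-coding genes 7.13% and 22.6%. CDKN1A, a cyclin-dependent kinase inhibitor, was at 31.6 and 29.9 CPM at 0 h and 93.7 and 117 CPM at 6 h and rose by 1.78 ± 0.22. SPATA18, a mitochondrial quality control protein, was at 0.0535 and 0.0187 CPM at 0 h and 1.11 and 1.01 CPM at 6 h. MDM2, the ubiquitin ligase of p53, was at 97.4 and 94.8 CPM at 0 h and 42.1 and 20.8 CPM at 6 h (-1.61 ± 0.28). Without 0h library 2 or 6h library 2, 2 p53 targets fell, and 3 without 6h library 1.

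Genes of ribosome assembly and of the ribosome were counted separately. Of 96 ribosome biogenesis genes 41 fell and none rose, with a median of -0.43, and 26 fell without 0h library 2, 26 without 6h library 2 and 27 without 6h library 1. WDR43, of the small subunit processome, was at 147 and 171 CPM at 0 h and 29.4 and 26.1 CPM at 6 h (-2.52 ± 0.24). URB2, of large subunit assembly, was at 57.4 and 69.2 CPM at 0 h and 15.5 and 10.2 CPM at 6 h (-2.30 ± 0.22), GRWD1, a chaperone of a ribosomal protein, at 109 and 110.3 CPM at 0 h and 31.1 and 26.8 CPM at 6 h (-1.92 ± 0.13), and GNL3, nucleostemin, and IMP3, a U3 snoRNP protein, fell, with log2 changes of -1.64 and -1.51. Of 86 cytosolic ribosomal protein genes 2 fell and 1, RPL22, rose, with a median of 0.36 by TMM and -0.10 with fly scaling. RPL22 did not pass with fly scaling, without a filter, with the SPT6-AID libraries alone, or without 0h library 1, 0h library 2, 2h library 1, 6h library 2 or either PAF1-AID 2h library, and 1 of the falls was lost without 0h library 2 or any 1 of the 4 libraries at 6 h. Of 46 proteasome genes 6 fell, 1 without 0h library 2, 2 without 0h library 1 or 6h library 1 and 3 without 6h library 2. Of 20 aminoacyl-tRNA synthetases 1, FARSA, fell, and none without 0h library 2 or 6h library 1. The shares lower were 2.33%, 13% and 5% by TMM, against 16.4% of all genes. With fly scaling 3 ribosomal protein, 17 proteasome and 9 synthetase genes were lower, the latter 2 being 37% and 45% of their lists against 28.1% of all genes.

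Some signalling and stress lists held steep falls. The shares lower were 31.8% of WNT targets, 21.4% of the ATF4 list and 20% of cholesterol and fatty acid genes. Among all genes tested 16.4% were lower, and among protein-coding genes 22.6%. WNT targets were lower in 7 of 22 cases and higher in none, with a median of -0.42. AXIN2, a feedback inhibitor of the pathway, was at 386 and 313 CPM at 0 h and 85.6 and 58.2 CPM at 6 h (-2.28 ± 0.21), RNF43, a ubiquitin ligase that removes WNT receptors, at 45.6 and 56.2 CPM at 0 h and 11.9 and 9.6 CPM at 6 h (-2.24 ± 0.18), and BMP4, given above, is on the same list. In the ATF4 and unfolded protein list 6 of 28 fell and 1 rose. ATF4, the transcription factor of the integrated stress response, was at 268 and 375 CPM at 0 h and 87.7 and 114 CPM at 6 h (-1.67 ± 0.24). Its targets DDIT3, at 11 and 11.9 CPM at 0 h and 1.98 and 2.2 CPM at 6 h, and TRIB3, at 148 and 132 CPM at 0 h and 72.4 and 48.9 CPM at 6 h, fell, with log2 changes of -2.45 and -1.21. Of 35 cholesterol and fatty acid genes 7 fell, and 4 without 6h library 2, among them MVK, mevalonate kinase, at 34.9 and 25.7 CPM at 0 h and 10.9 and 6.77 CPM at 6 h (-1.77 ± 0.24).

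Of 34 apoptosis regulators 12 fell and 1 rose. PMAIP1, which encodes NOXA, a BH3-only protein that promotes cell death, was at 36.8 and 46.1 CPM at 0 h and 98 and 140.4 CPM at 6 h (1.52 ± 0.21), the riser of the list. FADD, an adaptor of death receptors, was at 62.6 and 48.5 CPM at 0 h and 22.1 and 15 CPM at 6 h (-1.58 ± 0.22), and CASP2, an initiator caspase, fell, with a log2 change of -1.31. In the interferon list 2 of 30 rose and 4 fell: OAS2, an antiviral enzyme, rose by 2.03 ± 0.39 and IRF2, a repressor of interferon genes, fell, with a log2 change of -1.96 ± 0.21, and 1 or 2 fell without any 1 SPT6-AID library of 0 h or 6 h or either PAF1-AID 6h library. In the NRF2 list, of the oxidative stress response, 3 of 19 rose and 4 fell, among the latter KEAP1, the inhibitor of NRF2, at -0.97, and OSGIN1 at -1.56. Of 22 NF-kB pathway genes none rose and 2 fell, BIRC2 and RELA, the latter not without 0h library 1 or 6h library 2. The heat shock proteins had 3 of 25 higher and 4 lower, HSPA8 among the latter. The shares lower were 35.3% of apoptosis, 13.3% of interferon, 21.1% of NRF2, 9.09% of NF-kB and 16% of heat shock genes. Among all genes tested 16.4% were lower, and among protein-coding genes 22.6%. The shares higher were 2.94%, 6.67%, 15.8%, 0% and 12% in the same order, against 8.76% of all genes.

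Zinc finger genes, most of which encode repressors, were lower in 159 of 359 cases and higher in 16, with a median of -0.60 by TMM. Without 6h library 2, 95 were lower, and 8 were higher without 0h library 1 and 10 without 0h library 2.

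Long non-coding genes were more often higher, while pseudogenes were not. Of 3672 pseudogenes tested 3.84% rose and 5.56% fell, both under the 8.76% and 16.4% of all genes. Of 3076 long non-coding genes tested 19.99% rose and 3.48% fell, with a median change of 0.55 by TMM and 0.12 with fly scaling, against 7.13% and 22.6% of 13663 protein-coding genes and medians of -0.08 and -0.51. The TMM medians were also 0.55 and -0.08 with genes near 0 counts set to the bound that 3 counts allow. With only genes at a mean of at least 1 CPM kept, they were 0.28 and -0.04. Long non-coding genes are mostly at low levels, and within the second-lowest quintile of all genes by level 24.6% of long non-coding and 18.3% of protein-coding genes rose, while in the lowest quintile the shares were 16.8% and 20.8%. MIR663AHG, a host of a miRNA, was at 1.142 and 0.504 CPM at 0 h and 66.7 and 33.5 CPM at 6 h (5.92 ± 0.68), and AP000692.2 at 0.393 and 0.056 CPM at 0 h and 7.56 and 19.1 CPM at 6 h (5.86 ± 0.72), both with libraries of each time well apart and no overlap between the times. AC009831.1, an antisense gene of chromosome 18, was at 0.5 and 0.299 CPM at 0 h and 9.15 and 9.7 CPM at 6 h (4.55 ± 0.32). Of 497 antisense genes 104 rose and 12 fell. These are 20.9% and 2.41%, close to the 19.99% and 3.48% of all long non-coding genes. ADAMTSL4-AS2 was at 0.107 and 0.131 CPM at 0 h and 4.21 and 4.05 CPM at 6 h and RUFY1-AS1 at 0.535 and 0.336 CPM at 0 h and 7.28 and 7.26 CPM at 6 h, rises of 5.09 ± 0.33 and 4.05 ± 0.39.

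Of 334 LINC genes 64 rose and 14 fell. These are 19.2% and 4.19%, also close to the 19.99% and 3.48% of all long non-coding genes. Among those that rose, LINC00672 did so by 3.49 ± 0.41 and LINC00899 by 2.14 ± 0.22. With fly scaling 54 antisense and 41 LINC genes were higher, and without 0h library 2, 51 and 28. Without 0h library 1 they were 61 and 36, 69 antisense genes were higher without 6h library 1, and 40 LINC genes without 6h library 2. The falls went to 5 and 5 without 0h library 1, 7 and 5 without 0h library 2, and 5 and 4 without 6h library 2. The library kit kept the strand, but the strand setting of the counting is not given in the sources used here, so reads of an antisense gene and of its partner may not be told apart. SNHG17, a host of small nucleolar RNAs, was a non-coding gene that fell, at 34.8 and 41.1 CPM at 0 h and 11.5 and 10.4 CPM at 6 h (-1.79 ± 0.16), and AC007996.1 went from 12.5 and 7.29 CPM to 2.65 and 1.71 CPM (-2.17 ± 0.36). The clustered histone genes, whose mRNAs normally lack a poly(A) tail, had 3 of 43 higher and none lower, with a median of 0.67 by TMM. This share of 6.98% higher is close to the 8.76% of all genes. H2BC9 was at 0.857 and 0.803 CPM at 0 h and 4.84 and 4.75 CPM at 6 h (2.53 ± 0.48), and 1 histone gene was higher with fly scaling, and 1 without either 2 h library, 6h library 2 or either PAF1-AID 6h library.

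The share of protein-coding genes that fell changed with the length of the gene on the chromosome. It was 6.34% of genes under 2 kb, 12.5% from 2 to 5 kb, 23.4% from 20 to 50 kb and 30.6% from 100 to 200 kb, and then dropped to 26.9% from 200 to 400 kb and 13.5% at 400 kb or more. The share that rose went from 14.1% under 2 kb to 4.03% from 100 to 200 kb. Median changes were 0.36, -0.27 and -0.12 in the shortest class, at 100 to 200 kb and in the longest. The rise and drop with length was also seen among genes of similar level: in the second-highest quintile of all genes by level, 17.5% of genes under 2 kb fell, 44.6% from 50 to 100 kb and 22.8% at 400 kb or more, and in the highest quintile the shares were 1.79%, 27.9% and 24.3%. By number of exons the spread was smaller, from 17.9% of genes with 1 exon to 25.9% with 11 to 20. Gene classes are not replicates, and the shares are given without a test.

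**Figure D4:**
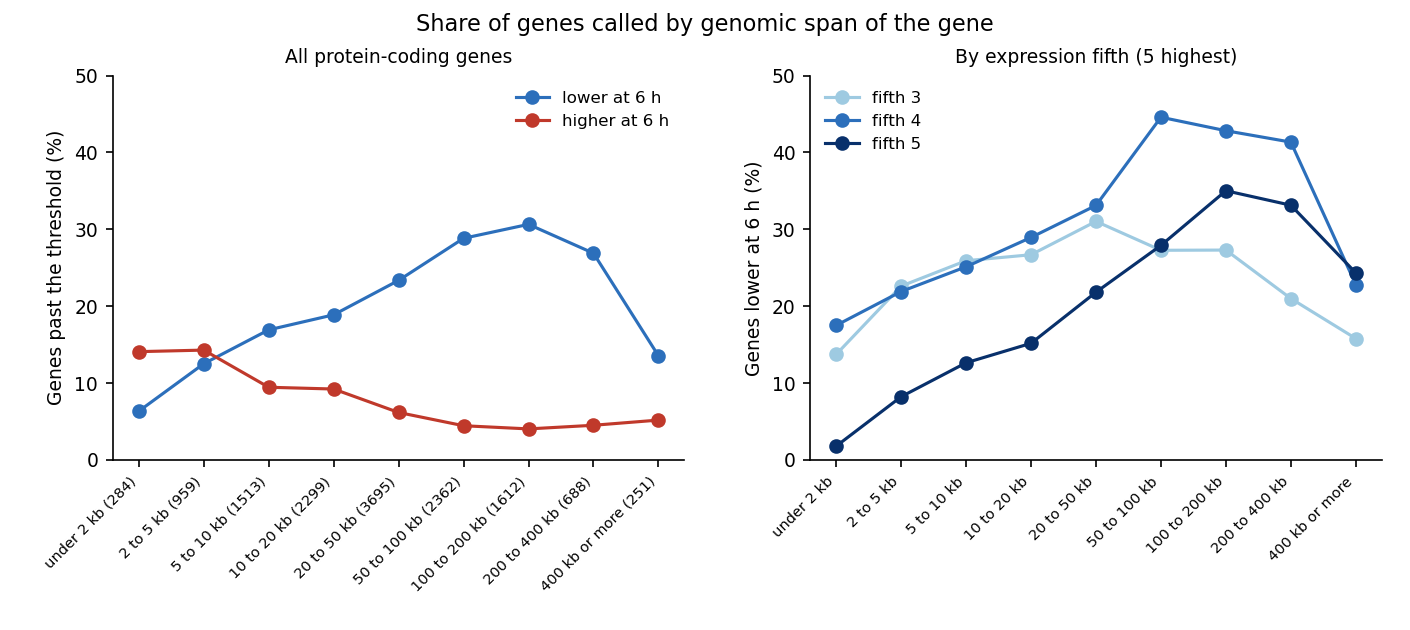
Left, percent of protein-coding genes that were lower (blue) or higher (red) at 6 h by the span of the gene (horizontal axis, number of genes in brackets); right, percent lower in the 3 upper quintiles of all genes by level. The share lower was 6.34% under 2 kb, 30.6% at 100 to 200 kb and 13.5% at 400 kb or more.

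Position beside other genes went with the rises. Protein-coding genes that start within 10 kb past the end of another coding gene on the same strand rose in 11.4% of 2623 cases and fell in 16.8%, while genes with no such neighbour, no divergent partner and no gene opposite rose in 6.83% of 7554 cases and fell in 23.9%. The difference in rises was also present among genes of like level: 26.9% against 15.1% in the second-lowest quintile and 8.46% against 3.40% in the middle quintile, here against all genes not so placed. In the second-highest quintile it was 3.25% against 2.65%, and in the highest 5.34% against 4.02%. Long non-coding genes placed past a coding gene rose in 24.3% of 575 cases, and those with none of these positions in 16.2% of 1129. Those that overlap a coding gene on the other strand rose in 22.4% of 1306. By level, long non-coding genes past a coding gene rose in 21.8% of cases against 15.6% of those not so placed in the lowest quintile. In the second-lowest quintile the shares were 27.1% and 24%. Where the start lies within 1 kb of a coding gene's start on the other strand, protein-coding genes rose in 3.38% of 2161 cases and long non-coding genes in 19.6% of 876. The counts are of reads over whole genes and do not show where in a gene the reads began.

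Many genes changed between 2 h and 6 h. In that interval 1107 genes rose and 2166 fell, 5.32% and 10.4% of genes tested. At 2 h the genes that were higher at 6 h stood at a median of 0.44 and the lower ones at -0.21, values that share the 0 h libraries with the 6 h comparison. JUN and IER5 did not pass at 2 h against 0 h (-0.35 and -0.04, adjusted p = 0.485 and 1 in edgeR's quasi-likelihood test), and rose by 1.97 and 2.23 from 2 h to 6 h. JUNB went from 101 and 90.2 CPM at 2 h to 426 and 409 CPM at 6 h, a change of 2.12. TRIM72 rose by 3.69 and MRC1 by 3.24 in the same interval, and CCDC71, RAD52, CSTF1 and KDM8 fell, with log2 changes of -2.29, -2.40, -2.24 and -2.32. FOS and DUSP6 had changed by 2 h, by 3.18 and -1.90 against 0 h (adjusted p = 0.0002 and 0.00173, edgeR quasi-likelihood test), and from 2 h to 6 h they were at -0.18 and 0.16 (adjusted p = 0.634 and 0.617 in edgeR's quasi-likelihood test). SPRY4 was at -0.86 at 2 h, which did not pass, and rose by 2.24 between 2 h and 6 h. The count of 3273 depends on the 2 h libraries and on 6h library 2: it was 1718 without 2h library 1, 1119 without 2h library 2 and 1293 without 6h library 2.

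The same comparison of 6 h with 0 h was made in PAF1-AID cells. There 873 genes rose and 1394 fell, 4.2% and 6.7% of genes tested. Of the genes higher after loss of SPT6, 478 were higher after loss of PAF1, 26.2% of the SPT6 list and 54.8% of the PAF1 list. Of the lower genes 1038 were shared, 30.4% and 74.5% of the 2 lists. In opposite directions there were 5 and 28 genes. The 2 lines share no library, though they share the auxin and OsTIR1. CYP1A1 rose in both lines, with 3.42 and 5.66 CPM at 0 h and 68.2 and 64.7 CPM at 6 h in PAF1-AID cells, and the difference of the changes did not pass (adjusted p = 0.0644 for the interaction in edgeR's quasi-likelihood test). PPFIA4 rose by 3.43 and 3.94, and RAD52, KDM8, IRF2 and DDIT3 fell in both, with changes of -2.46 and -2.14, -2.84 and -2.40, -1.96 and -2.73, and -2.45 and -2.13.

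The difference between the 2 responses, tested gene by gene, passed for 129 genes on the side of higher with SPT6 loss and 649 on the side of lower, 0.62% and 3.12% of genes tested. The count is fragile: it was 223 with total counts and 16 with fly scaling, and 30 without PAF1-AID 6h library 4, 52 without PAF1-AID 0h library 3 and 60 without SPT6-AID 0h library 2. Of the named genes, 5 passed under every alternative run (19, the block aside): SNORD3B-1, SNORD3A, AC009831.1, KIAA1586 and GRWD1. SNORD3A and SNORD3B-1 are near-identical copies of U3, the small nucleolar RNA of pre-rRNA cleavage, so their counts are uncertain as to copy. The RNA was poly(A)-selected, so these counts need not follow the amount of mature U3. Whether the reads come from mature U3 or from other transcripts over these genes was not tested. SNORD3B-1 was at 0.268 and 0.262 CPM at 0 h and 9.43 and 11.3 CPM at 6 h in SPT6-AID cells and at 0.479 and 0.481 CPM at 0 h and 0.812 and 0.686 CPM at 6 h in PAF1-AID cells, a difference in log2 change of 4.64 ± 0.36. SNORD3A was at 1.37 and 1.77 CPM at 0 h and 28.6 and 37.6 CPM at 6 h against 2.01 and 2.13 CPM at 0 h and 3.25 and 2.18 CPM at 6 h, a difference of 4.002 ± 0.36. AC009831.1 was at 0.73 and 0.734 CPM at 0 h and 0.881 and 0.823 CPM at 6 h in PAF1-AID cells, where it did not pass, and the difference was 4.33 ± 0.43.

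KIAA1586, which encodes a SUMO ligase, was at 18.2 and 18.2 CPM at 0 h and 4.41 and 4.12 CPM at 6 h in SPT6-AID cells and at 20.2 and 22.7 CPM at 0 h and 23.8 and 23.9 CPM at 6 h in PAF1-AID cells, with the 6 h SPT6-AID libraries alone below the rest (difference -2.24 ± 0.23). GRWD1 was at 98.3 and 111 CPM at 0 h and 93.1 and 100.1 CPM at 6 h in PAF1-AID cells, against the fall given above (difference -1.81 ± 0.18). URB2 was at 46.2 and 56.2 CPM at 0 h and 52.3 and 57.2 CPM at 6 h there, a difference of -2.39 ± 0.30 that passed in 18 of the 19 alternatives and had an adjusted p of 0.0551 with fly scaling (edgeR quasi-likelihood test). JUN was at 75 and 77.7 CPM at 0 h and 87.5 and 75.6 CPM at 6 h in PAF1-AID cells, a difference of 1.52 ± 0.19 that passed in 17, with the same adjusted p of 0.0551 under fly scaling by that edgeR test. FOS, with 4.7 and 5.27 CPM at 0 h and 13.4 and 9.19 CPM at 6 h in PAF1-AID cells, rose in both lines and by 1.82 ± 0.30 more with SPT6 loss, passing in 14. NXF1 went the other way: it rose more with PAF1 loss, with 86.3 and 85.1 CPM at 0 h and 398 and 333 CPM at 6 h, a difference of -0.74 ± 0.17 that passed in 3 of 19.

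**Figure D5:**
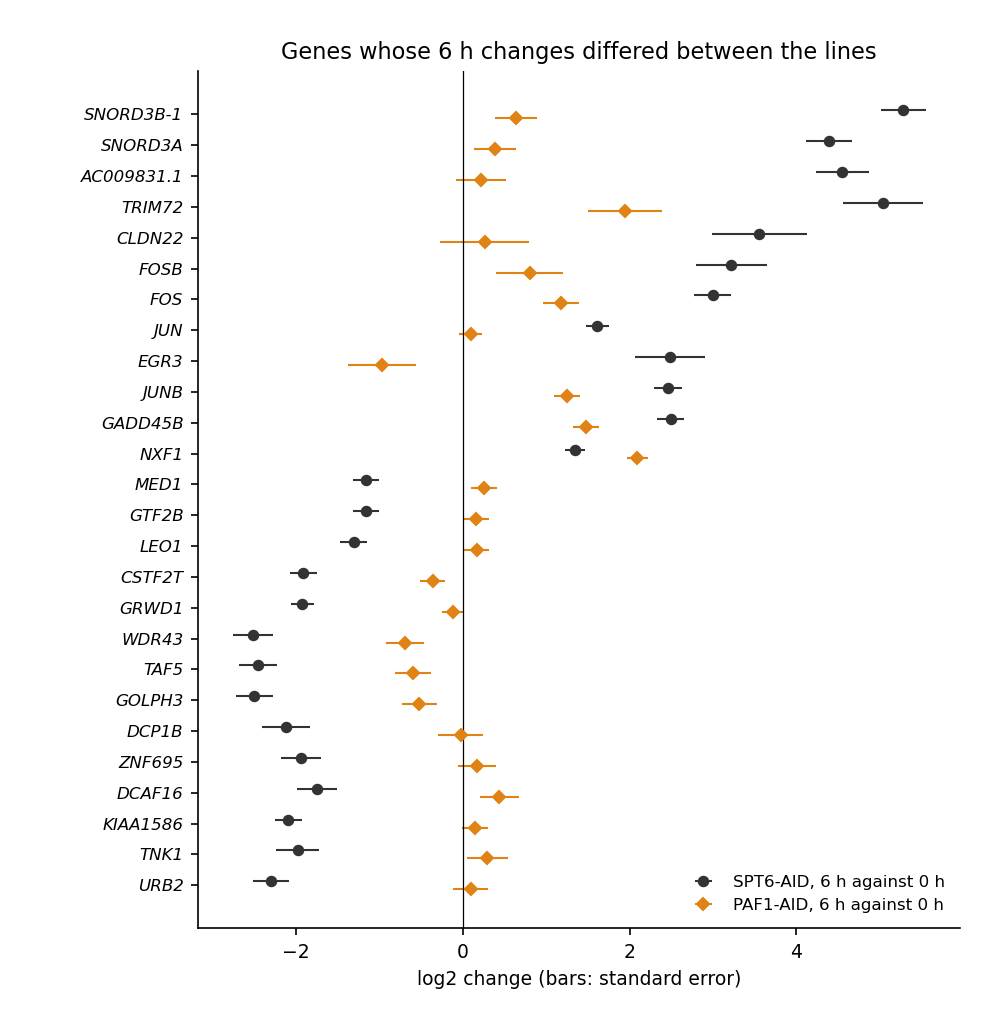
log2 change from 0 h to 6 h with its standard error (horizontal axis) in SPT6-AID cells (circles) and PAF1-AID cells (diamonds) for genes whose changes differed between the lines by edgeR's test. SNORD3B-1, SNORD3A and AC009831.1 changed by 5.28, 4.39 and 4.55 with SPT6 loss and by 0.64, 0.39 and 0.22 with PAF1 loss; NXF1 is the gene shown that rose further with PAF1 loss.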

How the data were processed

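Per the labels' protocols, poly(A) RNA was selected and libraries were made with a directional kit. The submitters' processing notes name the tools cutadapt, STAR 2.7.5 and featureCounts 2.0.0, and the genome builds GRCh38 and BDGP6. The authors deposited raw read counts per gene for 60666 human and 17807 fly genes. GENCODE release 29 gave positions and gene types (58420 gene IDs matched).

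Human genes passing filterByExpr (20791) were scaled by TMM and fitted with edgeR 4.0.16 as 6 group means over 12 libraries; contrasts were tested by quasi-likelihood F-test with Benjamini-Hochberg adjustment at 0.05. Total counts were 31957953 to 115904780 per library. Chi-square per degree of freedom between the libraries of a group was 34.1 to 63.1, far above sampling noise. On simulated data for 20791 genes in this comparison, 6%, 48%, 86% and 100% of genes changed 1.5-, 2-, 4- and 8-fold were recovered. There were 9 false calls of 129. The changed genes were a small part of all genes, above 1 CPM, and went up or down at random. In the data 25.2% of genes were called and many were at lower levels, so these rates need not hold there.

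The members and gene lists were chosen with earlier results of these data known. Named genes were SUPT6H, the largest changes in each direction (protein-coding, long non-coding, CPM difference and interaction; passing the test, with a mean of at least 1 in log2 CPM and both 6 h libraries on the same side of both 0 h libraries) and up to 4 members per list in each direction with the smallest p. Not all are named, some genes are not reported here, and members that did not pass, AHRR, ZFP36L1, RTF1, CTR9, LINC and antisense examples were chosen after their values were seen. Alternatives were DESeq2 1.42.0 (size factors and Wald test), total counts, fly counts as library sizes, no filter, a mean of at least 1 CPM, limma-voom 3.58.1, the SPT6-AID libraries alone, a replicate block and leaving out each library.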

Additional observations from a re-analysis of the deposited data

Results flagged for a closer look

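For 61 of the genes named here the change from 0 h to 6 h differed between SPT6-AID and PAF1-AID cells by the interaction term of edgeR's quasi-likelihood test (Benjamini-Hochberg adjusted p under 0.05). Each value is the SPT6-AID minus the PAF1-AID log2 change.

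These non-coding genes stood higher with SPT6 loss: SNORD3B-1 4.64, SNORD3A 4.002, AC009831.1 4.33, ADAMTSL4-AS2 2.89 and LINC00899 1.56. So did these protein-coding genes that rose: CLDN24 3.34, CLDN22 3.29, TRIM72 3.09, C2orf92 2.34 and NAT16 1.86. These AP-1 and early response genes were on the same side: EGR3 3.45, FOSB 2.42, FOS 1.82, JUN 1.52, IER5 1.21, JUNB 1.21 and GADD45B 1.02. These genes of the polymerases, initiation and Mediator stood lower with SPT6 loss: TAF5 -1.86, MED1 -1.42, POLR1B -1.40, MED13 -1.36, GTF2B -1.32, BRF2 -1.28, POLR2D -1.14 and MED8 -0.98. These elongation factors did too: LEO1 -1.47, CDK13 -1.44, SETD2 -1.11, RTF1 -1.01, MLLT1 -0.88 and MLLT3 -0.85. For 3′ end and RNA processing genes the differences were: CSTF2T -1.55, PAPOLG -1.54, FIP1L1 -1.24, CASC3 -1.02, ZCCHC8 -0.91, SON -0.82 and NXF1 -0.74. Among ribosome biogenesis genes and hosts of small nucleolar RNAs they were: URB2 -2.39, WDR43 -1.83, GRWD1 -1.81, IMP3 -1.27 and SNHG17 -0.91. For repair, replication and chromatin genes they were: RIF1 -1.36, RMI1 -1.28, FANCM -1.25, SUV39H1 -1.21 and POLD3 -1.03. For signalling and metabolic genes and the intestinal factor CDX2 they were: MVK -1.48, AXIN2 -1.45, BMP4 -1.25, CDX2 -1.11, CASP2 -1.004 and ARHGAP32 -1.47. CDX2 did not pass in SPT6-AID cells (-0.36, adjusted p = 0.181, edgeR quasi-likelihood test). In PAF1-AID cells it rose by 0.75 (adjusted p = 0.027, same test). The remaining genes were: TNK1 -2.27, KIAA1586 -2.24, DCAF16 -2.18, ZNF695 -2.11, DCP1B -2.09, GOLPH3 -1.98 and CCDC71 -1.64.

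These differences rest on the scaling and on single libraries. Of the 61, 29 passed with total counts and 5 with fly counts as library sizes, and 7 passed without PAF1-AID 6h library 4, 8 without PAF1-AID 0h library 3 and 9 without SPT6-AID 0h library 2. SNORD3B-1, SNORD3A, AC009831.1, KIAA1586 and GRWD1 passed in all 19 alternatives other than the replicate block.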

How the results depend on the processing

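For SPT6-AID 6h against 0h, 5230 genes changed, 4060 to 6800 with another scaling, filter, tool or the SPT6-AID libraries alone, and 3190 to 5310 when 1 library was left out. Fly counts as library sizes cut the share of calls that were higher from 34.8% to 14.1%. For the difference between the SPT6-AID and PAF1-AID responses the count was 778, and 223 with total counts, 16 with fly counts, 1330 without a filter, 1366 by DESeq2's Wald test and 30 to 1066 with 1 library left out; the SPT6-AID libraries alone cannot give it. For 2 h to 6 h it was 3273, 1940 with the SPT6-AID libraries alone and 1119 to 3182 with 1 library left out. The cause of these shifts was not tested. No called gene named here was called in the opposite direction.

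The replicate block raised the counts to 10683, 4513 and 8466 (6 h against 0 h, the difference, and 2 h to 6 h), and all 5230 calls of 6 h against 0 h were among them. Deviations of same-numbered SPT6-AID libraries correlated at 0.66, 0.57 and 0.60 between times, but there are only 2 numbers and the labels do not say what they mark.

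Genes with few counts at 0 h have uncertain fold changes: 260 tested genes had at most 3 counts there.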
